A study of Homo sapiens with 3 samples.

Results

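The methylation of 4 imprinted genes in band 11p15 of chromosome 11, H19, IGF2, KCNQ1OT1 and CDKN1C, was examined in Hep3B cells, a human hepatocellular carcinoma line, and in SOX4 knockout lines made from them. The regions were fixed intervals on chromosome 11 of the GRCh37 build. They were 2016000 to 2025000 for the H19 control region and promoter, 2150000 to 2172000 for IGF2, 2719000 to 2723000 for the KCNQ1OT1 control region and 2903000 to 2910000 for CDKN1C. Reads of both strands of a CpG were summed, and a CpG was used where each of the 3 libraries had at least 10 reads in CpG context. This kept 530 of the 869 CpGs read in any library in these intervals, 62 of 135 at H19, 300 of 428 at IGF2, 111 of 130 at KCNQ1OT1 and 57 of 176 at CDKN1C, out of 2238764 CpGs so covered in the whole series. The gene names of the intervals rest on these coordinates, as no annotation of GRCh37 was used here. At IGF2, KCNQ1OT1 and CDKN1C, 97.0 to 99.9% of the reads came from the strand complementary to GRCh37. At KCNQ1OT1 and CDKN1C, 0 CpGs had 10 reads on both strands in a library, so the strands could not be compared there.

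Parental Hep3B cells gave 1 library, and SOX4 knockout lines #1 and #2 (line 1 and line 2) gave 1 library each. SOX4 belongs to the SOX transcription factors, and the lines had been made by CRISPR/Cas9 editing in earlier work. The labels name no drug treatment, but per the study's methods the knockout cells were kept in medium with puromycin, a selection antibiotic, which was not stated for parental cells, so the edit and this exposure cannot be told apart. Both lines share the Hep3B background, and the sources used here do not state whether each line grew from a single cell. The edit at SOX4 was not checked here. Genomic DNA was enriched with capture probes for CpGs, treated with bisulfite and sequenced, and the methylation level of a CpG is the percent of its reads that kept a C. The libraries held 96987706 to 133170621 reads in CpG context, and the median depth of the CpGs used in the 4 regions was 22 reads in parental cells, 29 in line 1 and 32 in line 2.

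An imprinted gene is expressed from the copy inherited from one parent, and the choice is carried by a control region that is methylated on one parental copy alone. At 11p15 the H19 control region is methylated on the paternal copy. On the unmethylated maternal copy it binds CTCF and lets H19, a long noncoding RNA, be transcribed, while IGF2, a fetal growth factor, is expressed from the paternal copy. The KCNQ1OT1 control region, further along the chromosome, is methylated on the maternal copy. On the paternal copy it is the promoter of KCNQ1OT1, a long noncoding RNA whose transcription goes with silencing in cis of neighbours such as CDKN1C, an inhibitor of cyclin-dependent kinases. IGF2 is abundant in fetal liver, and imprints of this band are often disturbed in overgrowth syndromes and in liver tumours. With 1 copy methylated of a pair, a control region reads at 50%. With 3 copies, of which 1 or 2 are methylated, it would read at 33.3% or 66.7%.

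The RefSeq promoter of H19 is shown because one of its CpGs was among those used, and because the CpG with the lowest level of the H19 region lay just beyond its upstream end. It runs 5′ to 3′ on the minus strand at chr11:2001217-2001516 of GRCh38.p14, around the start that RefSeq lists, and capitals mark its 6 CpGs. The spacing of these CpGs matched the deposited GRCh37 positions at a single place in the H19 interval, 2022447 to 2022746. H19 also has transcripts with other starts, which were not placed here.
H19 promoter: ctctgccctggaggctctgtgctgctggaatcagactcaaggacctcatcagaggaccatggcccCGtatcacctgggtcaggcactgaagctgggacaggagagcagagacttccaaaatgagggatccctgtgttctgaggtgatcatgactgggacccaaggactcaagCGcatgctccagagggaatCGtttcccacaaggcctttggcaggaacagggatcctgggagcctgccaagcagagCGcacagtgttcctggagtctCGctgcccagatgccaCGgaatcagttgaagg
Reads were deposited for 2 of the 6 CpGs, and 1 had 10 reads in each library. This CpG, at base 66 of the sequence and position 2022680, had 19 methylated reads of 41 in parental cells, or 46.3% (exact 95% interval 30.7 to 62.6). In line 1 it had 25 of 62, or 40.3% (28.1 to 53.6), and in line 2 it had 27 of 67, or 40.3% (28.5 to 53.0). The intervals of the 3 libraries overlapped, and each of them held 50%. The other CpG that was read, at base 173, had 3 to 16 reads, too few to be used. These exact intervals (Clopper-Pearson) take in counting error alone, because PCR copies of a molecule may have been counted more than once.

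H19 had the highest mean level of the 4 regions. Over its 62 CpGs the mean level was 64.6% in parental cells, 69.7% in line 1 and 67.7% in line 2, with SDs over CpGs of 28.4, 23.2 and 23.3 points. The knockout mean was 68.7% ± 1.44 (SD, n = 2), 4.13 points above parental, and the lines differed from each other by 2.04 points. This excess depended on the depth asked of each CpG. It became -1.08 points over the 99 CpGs with at least 5 reads and -1.87 points over the 23 CpGs with at least 20 reads, so no direction was assigned to H19 as a whole.

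The mean of the H19 region joined stretches of different kinds, seen in its 1 kb windows with at least 5 CpGs. Near 50% in each library lay 2017001 to 2018000 (18 CpGs), at 51.9% in parental cells, 55.3% in line 1 and 52.9% in line 2. The deepest window, 2022001 to 2023000, which holds the promoter shown above, was at 52.5%, 51.2% and 51.9% over 6 CpGs with a median of 89, 120 and 120 reads. Its pooled reads gave intervals of 48.8 to 57.9% in parental cells, 50.7 to 58.5% in line 1 and 49.8 to 57.6% in line 2. Of its 6 CpGs, only 2022680 lies within the promoter as placed. Single CpGs ranged from 40.6 to 77.6% in parental cells, 5.62 to 66.4% in line 1 and 21.4 to 72.9% in line 2. The intervals of 5, 1 and 3 of the 6 held 50%, so the mean joined lower and higher CpGs. In contrast, 2020001 to 2021000 (24 CpGs) was methylated on nearly every read, at 97.1%, 93.0% and 92.8%. CpG 2020036, the highest of the region, was methylated on 11 of 11, 13 of 13 and 24 of 24 reads.

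The window 2018001 to 2019000 (14 CpGs) differed between parental cells and the knockout lines. Its level was 30.3% in parental cells, 56.4% in line 1 and 50.5% in line 2, a difference of 26.0 points for line 1 and 20.2 points for line 2, against 5.86 points between the lines. Of its 14 CpGs, 11 were higher in both lines and 2 were lower in both. None of them passed the Fisher test at the adjusted threshold, with a lowest adjusted p of 0.0878 for line 1 and 0.374 for line 2. Depth was low here, at a median of 14.5 parental reads, and a single CpG kept at least 20 reads in each library. That CpG ran against the window and differed from parental by -9.44 points in line 1 and -18.05 points in line 2. The next window, 2019001 to 2020000, had no CpG with 10 reads in each library. Over its 14 CpGs with at least 5 reads the difference had the opposite sign, with 89.9% in parental cells, 32.0% in line 1 and 46.9% in line 2.

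CpG 2022748, just beyond the upstream end of the RefSeq promoter as placed, was the lowest of the H19 region and its single CpG past the Fisher test. It was methylated on 28 of 69 parental reads, or 40.6%, on 5 of 89 reads in line 1, or 5.62%, and on 22 of 103 reads in line 2, or 21.4%. Line 1 fell by 35.0 points (2-sided Fisher exact test, Benjamini-Hochberg adjusted p = 7.22e-06), whereas the 19.2-point gap of line 2 below parental did not pass (adjusted p = 0.286). The other CpGs of its window kept the window mean near 50% in each library.

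**Figure D1:**
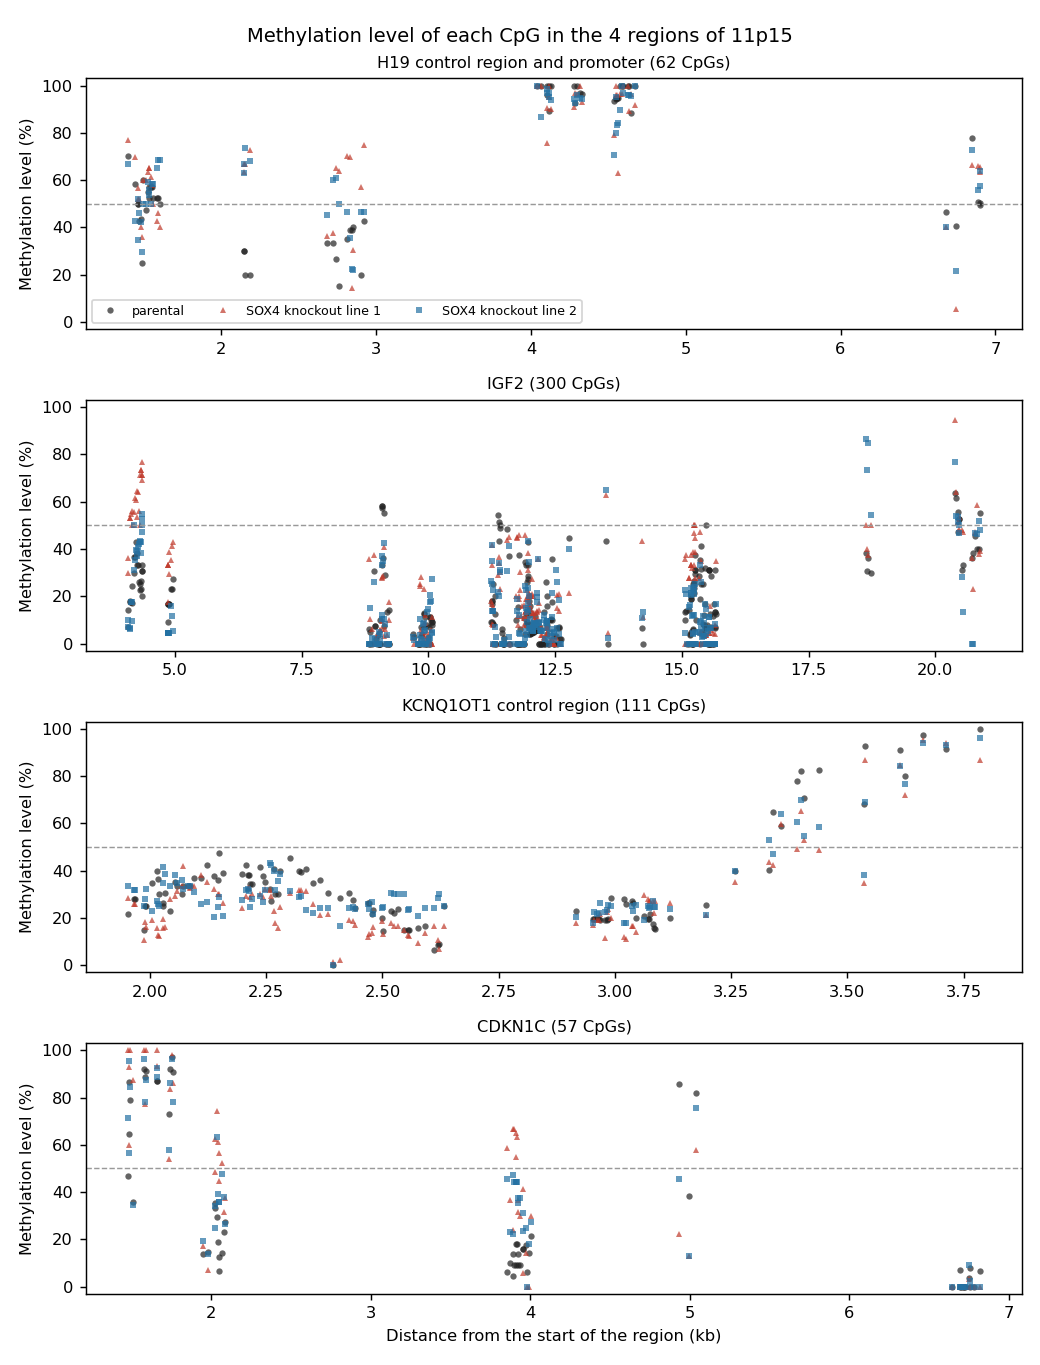
Methylation level in percent of each CpG used (vertical axis) against its distance in kb from the start of its interval (horizontal axis), with 1 panel a gene and 1 symbol a library; the dashed line marks 50%. H19 alternates between stretches near 50% and one near 100%, IGF2 lies mostly near 0%, KCNQ1OT1 lies mostly between 10 and 40% and then climbs above 90%, and CDKN1C runs from methylated CpGs at one end to unmethylated ones at the other.

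IGF2 was mostly unmethylated, and among its windows with at least 5 CpGs the largest difference from parental appeared in line 1. Over 300 CpGs the mean level was 14.9% in parental cells, 18.9% in line 1 and 13.4% in line 2, with medians of 9.09%, 11.3% and 6.67%. The knockout mean was 16.2% ± 3.85 (SD, n = 2), and its distance of 1.20 points from parental was smaller than the 5.45 points between the lines, with line 1 above parental and line 2 below. In parental cells 162 of the 300 CpGs were at or below 10%, against 145 in line 1 and 181 in line 2. Over the 2238764 CpGs used in the genome the counts were about 957622, 1066590 and 984684. The IGF2 share in line 1 was thus close to that of the genome. CpG 2159019, the lowest of the region, had 0 methylated reads of 26, 34 and 39, which allows levels of up to 13.2%, 10.3% and 9.03%.

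Of the 8 IGF2 windows with at least 5 CpGs, 6 stayed below 20% in each library. These lay between 2158001 and 2166000, with levels of 5.85 to 14.7% in parental cells, 2.13 to 17.6% in line 1 and 4.55 to 12.1% in line 2. The window 2170001 to 2171000 (14 CpGs) was intermediate instead, at 46.7%, 50.1% and 40.5%. It holds CpG 2170382, the highest of the region, which was methylated on 7 of 11 parental reads, 18 of 19 reads in line 1 and 10 of 13 reads in line 2, with overlapping intervals.

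Line 1 stood apart at 2154001 to 2155000 (32 CpGs). The level there was 24.1% in parental cells, 51.9% in line 1 and 25.7% in line 2. Line 1 was thus 27.8 points above parental and 26.3 points above line 2, while line 2 and parental differed by 1.58 points. No CpG of this window passed the adjusted Fisher test in line 1 (lowest adjusted p = 0.0915), though at an unadjusted p under 0.05 there were 9 higher than parental and 0 lower. In the rest of chromosome 11, 2.21% of CpGs were higher in line 1 and 10.5% lower by that measure. Pooled over the window, 153 of 596 parental reads were methylated, or 25.7% (22.2 to 29.4), against 288 of 556 in line 1, or 51.8% (47.6 to 56.0), and 192 of 700 in line 2, or 27.4% (24.2 to 30.9). Neighbouring CpGs share reads, so these pooled intervals are too narrow.

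At single CpGs of IGF2, both gains and losses were called. CpG 2159075, the single CpG of the 4 regions called in both lines, was methylated on 18 of 31 parental reads, or 58.1%, on 3 of 32 reads in line 1, or 9.38%, and on 5 of 42 reads in line 2, or 11.9%. The loss was 48.7 points in line 1 (Fisher exact test, adjusted p = 0.00167) and 46.2 points in line 2 (adjusted p = 0.00769), and the lines differed by 2.53 points. It was not called in both lines once each CpG was thinned to its smallest depth over the libraries. All reads of this CpG came from the complementary strand in each library. CpG 2159853, chosen after its values were seen, was higher in line 1 than in either other library. It had 2 methylated reads of 63 in parental cells, 26 of 92 in line 1 and 0 of 119 in line 2, a difference of 25.1 points between line 1 and parental (Fisher exact test, adjusted p = 0.00122) and 28.3 points between line 1 and line 2 (adjusted p = 9.11e-08).

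KCNQ1OT1 read below 50% in most of its control region. Over 111 CpGs the mean level was 33.8% in parental cells, 27.5% in line 1 and 32.4% in line 2, at a median of 35, 48 and 53 reads. The mean of the knockout lines, 30.0% ± 3.47 (SD, n = 2), differed from parental by -3.83 points, less than the 4.90 points between the lines. Line 1 differed from parental by -6.28 points and line 2 by -1.38 points.

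The profile along the KCNQ1OT1 region was shared by the libraries. Its 6 CpGs in 2720001 to 2721000 had mean levels of 23.7%, 20.9% and 30.3%, and the reads pooled over the 76 CpGs of 2721001 to 2722000 were methylated at 28.6% (26.8 to 30.4) in parental cells, 22.1% (20.8 to 23.5) in line 1 and 26.5% (25.1 to 27.8) in line 2. CpG 2721394, the lowest, was methylated on 0 of 65 parental reads, 1 of 89 reads in line 1 and 0 of 108 reads in line 2. The level then rose, with means of 49.7%, 43.3% and 45.6% over the 29 CpGs of 2722001 to 2723000, and CpG 2722663, the highest by mean, was methylated on 35 of 36, 38 of 40 and 31 of 33 reads. A mean near 50% in this last window therefore came from low and high CpGs, and the intervals of 3, 6 and 8 of its 29 CpGs held 50%. On the other side, the 5 CpGs within 5 kb below the interval were at 94.8%, 95.1% and 96.9%. Across the 111 CpGs, the levels of pairs of libraries correlated with Pearson's r of 0.868 to 0.900, a description over CpGs that share reads.

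The share of KCNQ1OT1 CpGs called lower was near that of the genome. In line 1, 4 of 111 CpGs (3.60%) fell by the adjusted Fisher test, against 4.46% of all CpGs tested, and 0 rose, against 0.599%. At an unadjusted p under 0.05, 7 of 111 (6.31%) were lower in line 1, below the 10.5% of the rest of chromosome 11, and 0 were higher. Line 2 had 0 calls, and its unadjusted counts were 4 lower (3.60%, against 6.29% in the rest of chromosome 11) and 0 higher. Of the CpGs called in line 1, named here after their values were seen, 2722440 had 43 of 52 methylated reads in parental cells, 33 of 68 in line 1 and 31 of 53 in line 2 (Fisher exact test, adjusted p = 0.00379 for line 1 and 0.285 for line 2). CpG 2721409 had 19 of 67, 2 of 88 and 18 of 110 methylated reads (Fisher exact test, adjusted p = 0.000124 and 0.832).

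CDKN1C ranged from methylated to unmethylated along its interval, and 2 of its windows were higher in both knockout lines. The mean over its 57 CpGs was 31.3% in parental cells, 43.0% in line 1 and 38.2% in line 2. Averaged over the lines it was 40.6% ± 3.33 (SD, n = 2), 9.29 points above parental, against 4.71 points between the lines. Like that of H19, this difference rested on CpGs of moderate depth, and it was -0.358 points over the 23 CpGs with at least 20 reads.

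At the lower end of the CDKN1C interval, 2904001 to 2905000 (16 CpGs) was at 71.3%, 78.6% and 71.1%, and it holds CpG 2904756, the highest, with 33 of 34, 50 of 51 and 54 of 56 methylated reads. At the upper end, 2909001 to 2910000 (12 CpGs) was at 2.12%, 0.287% and 0.956%, and CpG 2909643 had 0 methylated reads of 21, 20 and 31. The upper end differed by less than 2 points between the libraries, while at the lower end line 1 was 7.27 points above parental. Between them, 2905001 to 2906000 (9 CpGs) was at 22.3% in parental cells, 52.2% in line 1 and 38.4% in line 2, and 2906001 to 2907000 (16 CpGs) was at 11.9%, 37.2% and 32.7%. In the latter window line 1 was 25.3 points and line 2 was 20.8 points above parental, with 4.49 points between the lines, and 12 of 16 CpGs were higher in both lines. In the former the lines differed by 13.8 points, close to the 16.1 points between line 2 and parental. No CpG of these windows had 20 reads in each library. With at least 5 reads, line 1 was 28.5 points and line 2 was 17.2 points above parental at 2905001 to 2906000 (12 CpGs). At 2906001 to 2907000 (27 CpGs) they were 29.7 and 25.9 points above. The adjoining window, 2907001 to 2908000, differed in the opposite direction in both lines, at 48.5% in parental cells, 21.7% in line 1 and 28.7% in line 2 over 3 CpGs, and at 53.1%, 35.8% and 32.9% over 6 CpGs with at least 5 reads.

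Single CpGs of CDKN1C rose in line 1. There 6 of 57 were called higher (10.5%, against 0.599% of all CpGs tested) and 1 lower (1.75%, against 4.46%) by the adjusted Fisher test. Of the 6, 4 lay in 2906001 to 2907000 and shared reads, and the other 2 lay in 2904001 to 2905000. These last, named after their values were seen, were 2904481, with 7 of 15 methylated reads in parental cells, 13 of 13 in line 1 and 15 of 21 in line 2 (Fisher exact test, adjusted p = 0.0425 for line 1), and 2904513, with 9 of 25, 21 of 24 and 10 of 29 (Fisher exact test, adjusted p = 0.00851 for line 1 against parental and 0.0111 against line 2). Of those in 2906001 to 2907000, 2906900, also named after its values were seen, was methylated on 2 of 22 parental reads, or 9.09%, on 14 of 21 reads in line 1, or 66.7% (Fisher exact test, adjusted p = 0.00370), and on 8 of 18 reads in line 2, or 44.4% (adjusted p = 0.466). Called lower in line 1 was 2907930, at 12 of 14 methylated reads in parental cells, 6 of 27 in line 1 and 16 of 35 in line 2 (Fisher exact test, adjusted p = 0.00475 and 0.327). None of the 57 was called in line 2, where the counts at an unadjusted p under 0.05 were 6 higher (10.5%) and 1 lower (1.75%). The rest of chromosome 11 had 1.66% higher and 6.29% lower in line 2.

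**Figure D2:**
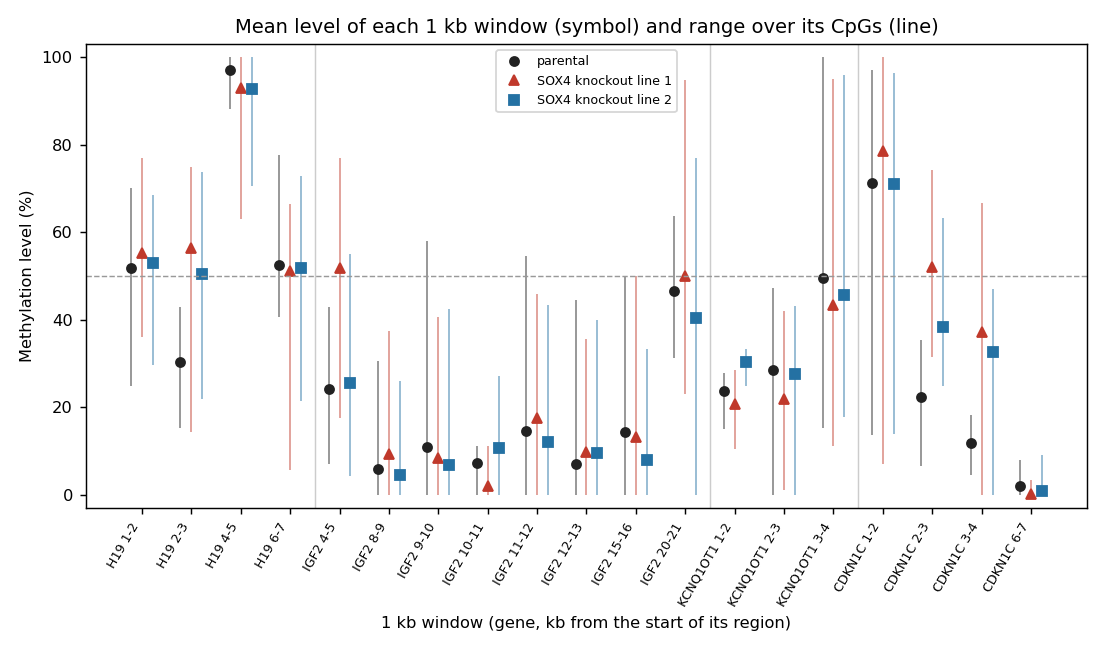
Mean methylation level in percent (symbol) and range over CpGs (vertical line) of each 1 kb window with at least 5 CpGs, by gene and distance in kb from the start of its interval, for the 3 libraries; the dashed line marks 50%. Line 1 lies at least 25 points above parental at H19 2-3, IGF2 4-5, CDKN1C 2-3 and CDKN1C 3-4. At the read minimum used, line 2 stays within 25 points of parental in each of the 19 windows.

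To compare the libraries over the 4 regions together, windows and CpGs were counted against the whole genome. Of 42 windows of 1 kb, 29 had a CpG that was read and 19 had at least 5 CpGs used. Line 1 was at least 25 points above parental in 4 of these 19, at H19, IGF2 and CDKN1C as given above, against 0.416% of 113178 windows over the genome, and at least 25 points below parental in 0, against 4.14%. At the read minimum used, line 2 was past 25 points in 0 windows in either direction (0.0892% higher and 0.629% lower over the genome). The same held for both lines together (0.0672% and 0.551%). Between the lines, line 1 was the higher in 1 window (0.116%) and the lower in 0 (0.786%). Over the 123 other windows in the 2000000 to 3000000 stretch of chromosome 11, by contrast, line 1 was past 25 points above parental in 1 and below in 17, and line 2 in 1 and 5. The mean level of that stretch outside the 4 regions was 48.8% in parental cells, 40.9% in line 1 and 43.8% in line 2 over 2080 CpGs. The 4 regions together had mean levels of 26.5%, 29.2% and 26.4%, beside 42.7%, 38.7% and 40.6% over all CpGs used in the genome.

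Among the 530 CpGs, the Fisher test called 9 higher (0.599% of all CpGs tested) and 9 lower (4.46%) in line 1 than in parental cells. In line 2 it called 0 higher (0.0831%) and 1 lower (0.713%). In both lines it called 0 higher (0.0581%) and 1 lower (0.6%), and between the lines line 1 was the higher at 3 (0.184%) and the lower at 1 (1.07%). At an unadjusted p under 0.05 the counts were 47 higher (8.87%) and 26 lower (4.91%) in line 1. In the rest of chromosome 11 the shares were 2.21% and 10.5%. Line 2 had 16 (3.02%) and 18 (3.40%), against 1.66% and 6.29% there. Line 1 against line 2 gave 39 (7.36%) and 12 (2.26%), against 2.03% and 5.87%. By the adjusted test, the share higher in line 1, 1.70%, was above the genome share and the share lower, also 1.70%, was below it. CDKN1C gave 6 of the 9 higher CpGs and KCNQ1OT1 gave 4 of the 9 lower ones. These tests compare libraries and not conditions, and with 1 parental library against 2 lines the smallest exact permutation p for a region is 0.333.

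Read against 50%, H19 had the largest share of CpGs holding that level in each library at the 10-read minimum. At 20 reads it did so in line 2 alone. The 95% interval held 50% at 35 of its 62 CpGs in parental cells, 29 in line 1 and 34 in line 2, against 12.1%, 12.3% and 11.3% of all CpGs. At IGF2 the counts were 79, 90 and 43 of 300, at KCNQ1OT1 45, 10 and 30 of 111, and at CDKN1C 11, 23 and 27 of 57. The IGF2 and CDKN1C intervals were not set as control regions, so the 50% given for a control region need not hold there. The interval held 50% in all 3 libraries at 26 CpGs of H19 (41.9%), 30 of 300 CpGs of IGF2, 5 of KCNQ1OT1 (4.50%) and 5 of CDKN1C (8.77%), against 4.15% of all CpGs. A shallow CpG has a wide interval, and H19 CpGs had a median of 19 parental reads against 31 over all CpGs. Over CpGs with at least 20 reads the shares were 39.1%, 17.4% and 26.1% at H19 and 39.6%, 8.91% and 22.8% at KCNQ1OT1, and IGF2 in line 1 was at 17.8%. At the deeper KCNQ1OT1 region the upper bound lay below 50% at 54, 94 and 74 of 111 CpGs (parental, line 1, line 2). Over the 2238764 CpGs of the genome the counts were about 1130380, 1225100 and 1189600. The parental share at KCNQ1OT1 was thus close to that of the genome. The KCNQ1OT1 interval held 33.3% at 92, 62 and 87 of the 111, against 269088, 278038 and 253316 over all CpGs. It held 66.7% at 6, 3 and 8, against 331071, 320982 and 294155. By windows, 4 of 19 in parental cells, 7 in line 1 and 5 in line 2 had a mean of 40 to 60% (10.9%, 10.9% and 11.3% of all windows). In all 3 libraries 4 did so (4.11%), 2 at H19 and 1 each at IGF2 and KCNQ1OT1, the last as a mix of low and high CpGs. At H19 2022001 to 2023000 the intervals of 5, 1 and 3 of its 6 CpGs held 50%.

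The same libraries read differently at imprinted control regions of other chromosomes, placed by intervals entered from general knowledge. PEG3 on chromosome 19, a paternally expressed zinc finger gene, was near 50%, at 43.1% in parental cells, 42.6% in line 1 and 41.9% in line 2 over 80 CpGs, and the interval held 50% in each library at 39 of them. MEST on chromosome 7 was methylated on nearly every read, at 96.5%, 95.6% and 96.8% over 100 CpGs. SNRPN on chromosome 15 was at 29.6%, 16.5% and 22.4% over 45 CpGs, below parental in both lines. KCNQ1OT1 lay nearest to SNRPN in its parental level, and H19 between PEG3 and MEST. Levels far from 50% were thus present in the parental library at control regions on and off chromosome 11, and no test of a difference between regions was made.

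**Figure D3:**
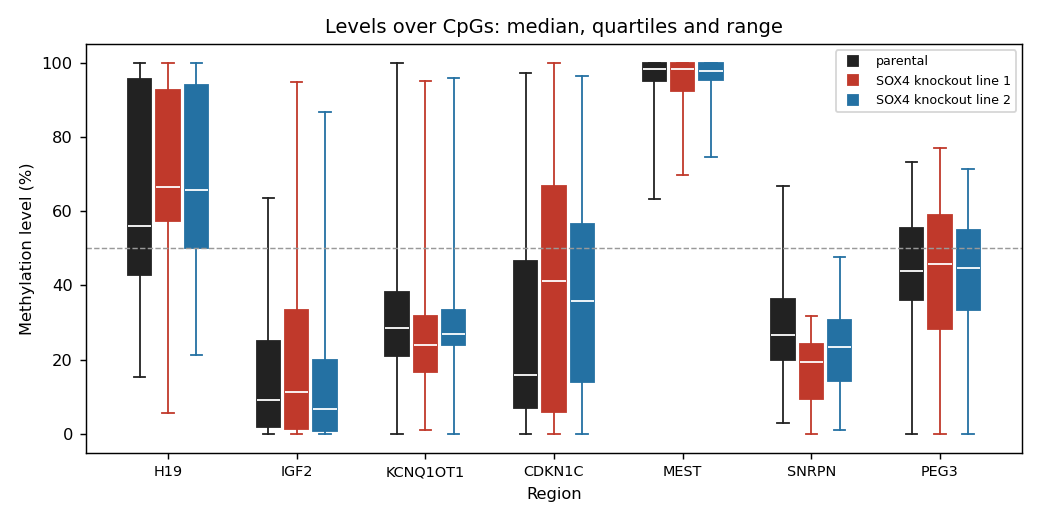
Methylation level in percent over the CpGs of each region by library, with the median (white line), quartiles (box) and range (whiskers), for the 4 regions of 11p15 and for MEST, SNRPN and PEG3; the dashed line marks 50%. The H19 boxes lie at and above 50% apart from the lower part of the parental one, the IGF2, KCNQ1OT1 and SNRPN boxes lie below it, the CDKN1C boxes of both lines reach above it, PEG3 straddles it and MEST lies near 100%.

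Chromosome 11 carried a larger share of the reads in both knockout lines than in parental cells. Read dosage is the share of a library's context reads in a region over the parental share, scaled so that the median autosome is 1. It was 1.34 for chromosome 11 in line 1 and 1.15 in line 2, the highest of 22 autosomes in each line, with the others at 0.781 to 1.16 and 0.893 to 1.08. The excess lay in the part of the chromosome that holds the 4 regions. In 14 bins of 5 Mb up to 70 Mb, a bound set after the bins had been seen, the dosage was 1.49 in line 1 and 1.23 in line 2, with bins at 1.36 to 1.74 and 1.10 to 1.47. In the 12 bins from 75 Mb on it was 1.04 and 1.00. Line 2 lay below line 1 in 27 of 27 bins.

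**Figure D4:**
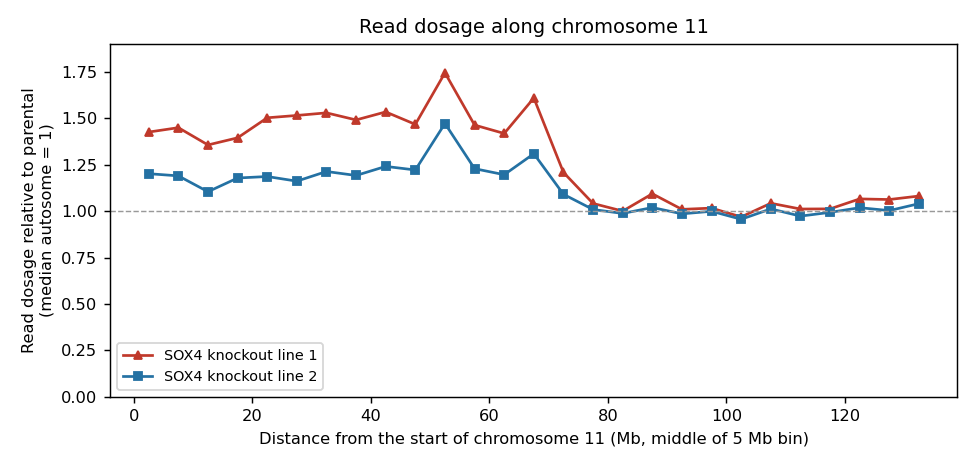
Read dosage relative to parental cells (vertical axis, median autosome at 1, dashed) in bins of 5 Mb along chromosome 11 (horizontal axis, Mb) for the 2 knockout lines. Both lines lie above 1 up to 75 Mb and near 1 beyond, and line 1 lies above line 2 in each bin.

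The 4 regions also had a dosage above 1 in both lines. The dosage in line 1 was 1.44 at H19, 1.42 at IGF2, 1.57 at KCNQ1OT1 and 1.26 at CDKN1C, and in line 2 it was 1.31, 1.21, 1.26 and 1.10. The stretch from 2000000 to 3000000 was at 1.45 in line 1 and 1.22 in line 2. Of the comparison regions, MEST was at 0.967 and 1.02 and PEG3 at 0.944 and 1.04. SNRPN was at 1.41 and 1.33, although chromosome 15 as a whole was at 1.05 and 1.02. The dosage of a single region thus does not by itself show that of its chromosome. Over 5609 windows of 1 kb on chromosome 11, the 5th and 95th percentiles were 0.782 and 2.08 in line 1 and 0.717 and 1.70 in line 2, a spread of single windows that is wider than that of sums over whole regions. Dosage is a share of captured reads, and the number of copies was not measured.

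Dosage was then computed for methylated and unmethylated reads apart, since at an intact imprint these come from different parental copies. Which class has the larger dosage follows from the change in the pooled level, so it restates that change in terms of reads and is no separate result. At KCNQ1OT1 the unmethylated reads had the larger dosage, at 1.74 against 1.24 for methylated reads in line 1 and 1.35 against 1.09 in line 2. The rest of the 2000000 to 3000000 stretch showed the same order, with 1.66 against 1.20 in line 1 and 1.33 against 1.09 in line 2, as did the rest of chromosome 11, with 1.42 against 1.20 and 1.20 against 1.08. At H19, whose level difference changed sign with the depth minimum, methylated and unmethylated reads were close, at 1.47 and 1.39 in line 1 and 1.35 and 1.24 in line 2, and no order is read from them. At CDKN1C the methylated reads were at 1.41 and the unmethylated reads at 1.18 in line 1, and at 1.22 and 1.03 in line 2. At IGF2 the order differed between the lines, with methylated reads at 1.58 and unmethylated reads at 1.39 in line 1 but 1.01 and 1.24 in line 2.

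**Figure D5:**
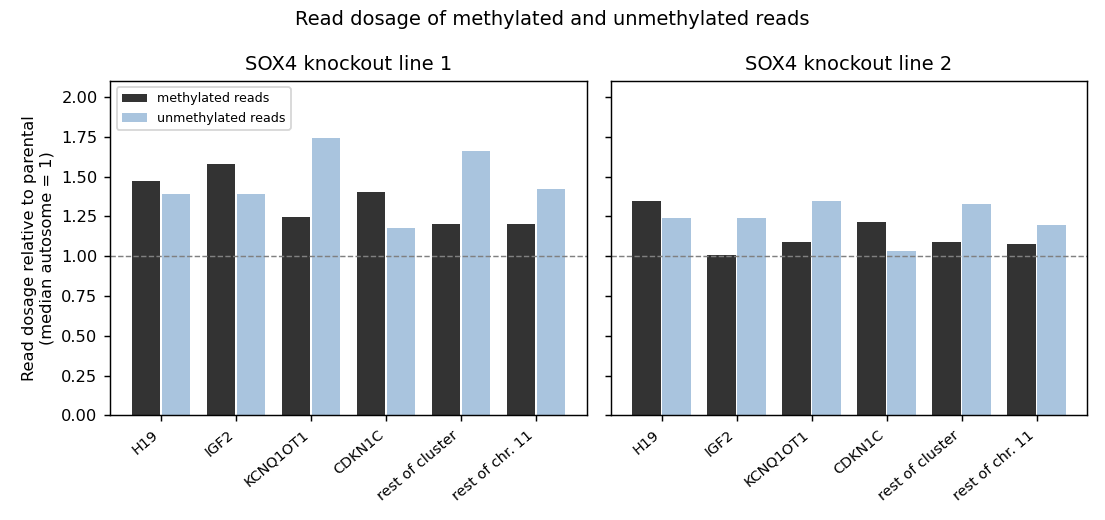
Read dosage relative to parental cells (vertical axis, median autosome at 1, dashed) of methylated and unmethylated reads in the 4 regions, in the rest of the 2 to 3 Mb stretch and in the rest of chromosome 11, with 1 panel a knockout line. Unmethylated reads have the taller bar at KCNQ1OT1, in the rest of the stretch and of the chromosome in both lines, and methylated reads have it at CDKN1C and, by 0.0780 and 0.107, at H19.

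The windows with the largest level differences were described in the same terms, with no test, since they were picked by their levels. At CDKN1C 2905001 to 2906000 the dosage of methylated reads was 4.67 in line 1 and 2.43 in line 2, and that of unmethylated reads was 1.16 and 1.14. At H19 2018001 to 2019000 it was 2.98 and 2.03 for methylated and 1.15 and 1.07 for unmethylated reads. Over 3471 windows of chromosome 11, the 5th and 95th percentiles of methylated dosage were 0.354 and 2.02 in line 1 and 0.510 and 1.69 in line 2, and those of unmethylated dosage were 0.745 and 3.22 and 0.670 and 2.27. At CDKN1C 2906001 to 2907000 methylated reads were at 3.34 and 1.77 and unmethylated reads at 0.688 and 0.476. The near-50% window of H19 at 2022001 to 2023000 had like values for both classes, at 1.51 and 1.43 in line 1 and 1.10 and 1.08 in line 2. Each window rests on few reads, 31 methylated parental reads of 137 at CDKN1C 2905001 to 2906000, and the part of read dosage in the level differences was not tested.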

How the data were processed

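DNA of 1 parental library and 2 SOX4 knockout libraries was captured with the TruSeq Methyl Capture EPIC kit, bisulfite treated and sequenced. Per cytosine and strand, the deposited files give unnormalized read counts (total, in CpG context, methylated), and a methylation fraction that the authors computed as methylated over context reads. The aligner, methylation caller, filters and handling of duplicates are not given in the sources used here. The submitters' processing notes name GRCh37 and hg19.

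The deposited counts of the 2 strands were summed, and a CpG is placed at the C of its forward strand. CpGs with 10 context reads in all 3 libraries were used. Region and window levels are unweighted means over CpGs. Pairs of libraries were compared per CpG by a 2-sided Fisher exact test, with Benjamini-Hochberg adjustment over 2238764 CpGs, called at an adjusted p under 0.05 and 25 points. In each region the CpGs with the highest and lowest mean (ties by position) and those called in both lines were named. The regions and lists were chosen with earlier results of these data known. The test code was checked on simulated independent reads in which some CpGs were raised in both lines. That check held no shared reads, PCR copies or losses, so it does not cover them. Scripts ran in Python 3.11.15 with numba 0.67.0, scipy 1.17.1, numpy 2.4.6, pandas 2.3.3 and matplotlib 3.10.9. The promoter came from RefSeq (GRCh38.p14). H19 was matched, and those of IGF2, KCNQ1OT1 and CDKN1C were not printed. Other genes of the band were not analysed here.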

Additional observations from a re-analysis of the deposited data

How the results depend on the processing

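Of 252 values recomputed under alternatives for 56 results, 191 stayed within the bound used for them, 58 moved further, and 3 differences larger than the spread between the lines changed sign. The bound was a spread, except for the 52 counts of CpGs called. For these it was a fixed ratio of the larger to the smaller count, and 36 stayed within it. A difference from a single knockout line could not leave its bound, because the bound was set from the gap between the lines. Asking for 90% of reads in context kept 110 CpGs at KCNQ1OT1 and every CpG of the other regions, so those values could hardly move. The number that stayed is therefore no measure of how robust the results are. Counting differences within the spread between the lines, 7 of 29 recomputed differences changed sign, 4 of them at IGF2. With at least 5 reads per CpG the H19 level became 61.6% in line 1 and 64.0% in line 2 and its knockout minus parental difference -1.08 points, IGF2 levels became 17.8%, 21.3% and 16.9% (parental, line 1, line 2), and the share of CpGs whose interval held 50% was 61.6% for H19 in line 1, 33.1% for IGF2 in parental cells and 61.9% for CDKN1C in line 2. With at least 20 reads H19 stood at 77.8%, 76.2% and 75.7% with a difference of -1.87 points, IGF2 at 13.4%, 14.6% and 11.2%, and CDKN1C at 38.4% in parental cells and 39.5% in line 1 with a difference of -0.358 points. The shares holding 50% were then 39.1%, 17.4% and 26.1% at H19, 18.5%, 17.8% and 9.59% at IGF2 and 4.35%, 4.35% and 8.70% at CDKN1C, and line 1 had 4 CpGs called higher than parental. These minimums keep other CpGs, 99 and 23 of them at H19. Summing reads over the region gave 13.9%, 15.3% and 11.4% for IGF2, 35.7% in parental cells and 30.6% in line 2 for KCNQ1OT1, and 35.3%, 46.7% and 40.8% for CDKN1C. Reads of the complementary strand alone gave 17.0% in line 1 and 11.4% in line 2 for IGF2. The IGF2 difference, smaller than the spread between the lines, took a negative sign under the 20-read minimum, summed reads, the complementary strand and line 2 alone. Leaving out the most methylated H19 window, an alternative chosen after seeing the data, gave 44.0%, 55.0% and 51.9% and a difference of 9.41 points. With a single knockout line (1 parental library against 1 line, a value with no test of conditions) the differences ranged from 3.11 to 5.15 points at H19, -1.52 to 3.93 at IGF2, -6.28 to -1.38 at KCNQ1OT1 and 6.94 to 11.6 at CDKN1C, and the CpGs called ranged from 0 (line 2) to 9 (line 1) higher and from 1 (line 2) to 9 (line 1) lower. Thinning every CpG to its smallest depth put the share of KCNQ1OT1 CpGs holding 50% in line 1 at 18.9% and left 0 CpGs lower in line 2, 0 lower in both lines and 0 lower in line 1 than in line 2. A threshold of 10 points gave 3 CpGs lower in line 1 than in line 2. At 50 points line 1 had 5 higher and 1 lower than parental, 1 higher and 0 lower than line 2, and 0 were lower in line 2 or in both lines. The stricter adjusted p of 0.01 left line 1 with 4 CpGs above parental and with 1 above and 0 below line 2. Dosage moved in 2 values, the methylated reads in line 1 of H19 (1.58) and CDKN1C (1.74) over CpGs with 10 reads in each library. No paired analysis was possible because 1 parental library cannot be matched to each knockout line. Depth and the missing parental replicate limit every difference.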

Other observations

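Windows and flanks with few covered CpGs stood outside the comparisons. The 5 CpGs within 5 kb above the CDKN1C interval had a mean level of 84.1% in parental cells, 43.4% in line 1 and 65.5% in line 2, lower in both lines at 5 of 5. Within the interval, the 9 CpGs of 2908001 to 2909000 with at least 5 reads were at 68.8%, 28.9% and 49.8%, the opposite direction from the CDKN1C windows at 2905001 to 2907000. At IGF2, the 4 CpGs of 2168001 to 2169000 were at 33.9%, 44.4% and 74.8%, and here line 2 was the library that stood apart. The flanks of H19 differed less, at 54.9%, 59.5% and 59.4% over the 48 CpGs below its interval and 69.3%, 65.9% and 71.1% over the 44 above it. In the hairpin of MIR675, the microRNA that H19 hosts, 2 CpGs were read, with 0 to 3 reads a library, and no level could be given.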
